A study of Mus musculus with 5 samples.

Results

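The 10 mouse keratin genes, Krt5, Krt7, Krt8, Krt10, Krt12, Krt15, Krt17, Krt18, Krt19 and Krt90, were followed in uteri of mice aged 15 days. They were taken by name, with every probe the array carries for them: 12 probes of 45281, for 10 genes. Each name was matched as the current symbol or as an older form with KRT1- for type I and KRT2- for type II keratins, so KRT2-10 and KRT1-5, which are other keratins (Krt86 and Krt36), were not counted. Krt17 and Krt90 are listed on the array as KRT1-17 and 4732456N10RIK, KRT7, KRT10 and KRT15 carry the current symbol, and the other 5 genes have the older form. Of the 12 probes, 11 were detected on at least 2 of the 5 arrays. The exception was a second Krt8 probe, which was not detected on any array. The genes were chosen in part on their intensity difference between Dicer cKO and control pools, which was already known, so their values in that comparison are given as a description, with no test.

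The Dicer cKO group comprised 2 pools of uteri (10 and 12) from mice in which Dicer, the enzyme that cuts microRNA precursors, was deleted with Cre expressed from the progesterone receptor locus. The control group comprised 3 pools (7, 9 and 11) of uteri labelled wild type, and both groups had a mixed C57BL/6J;129S5/Brd background. Deletion is thus limited to cells that have expressed the progesterone receptor. The sources used here state neither the number of uteri in a pool nor whether control mice had the Cre insertion or floxed Dicer. Each pool was read as total RNA on 1 Illumina bead array, on which between 47.0% and 49.5% of probes were detected. Values below are log2 intensities after background correction and quantile normalization, and differences are Dicer cKO minus control with the standard error of a limma fit across all genes. In the check of the labels, Dicer1 differed by -0.43 ± 0.09 (limma adjusted p = 0.0224), a call lost with any of 4 single pools left out (adjusted p up to 0.180), and Pgr, the gene of the progesterone receptor, by -0.77 ± 0.14 (limma adjusted p = 0.00896; 0.113 without Dicer cKO pool 10). A dimmer Dicer1 probe differed by -0.22 ± 0.13 and was not called. The call of the brighter Dicer1 probe was also lost without the intensity trend (limma adjusted p = 0.0526) and without normalization between arrays (limma adjusted p = 0.0905). All 16 listed stromal and muscle markers were detected on at least 2 arrays. Of the 16 listed non-keratin markers of uterine epithelium 15 were detected, while the probe for Epcam was not detected on any array.

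Keratins are the intermediate filament proteins of epithelial cells. A filament is built from pairs of 1 type I and 1 type II keratin, and which pair a cell makes marks its kind of epithelium. Krt8 (type II) with Krt18 and Krt19 (type I) and the duct keratin Krt7 (type II) are typical of simple epithelium, the single cell layer that lines the uterus. Stratified epithelia such as epidermis, vagina and cornea use others: Krt5 and Krt15 in the basal layer, Krt10 above it, Krt12 in the cornea, and Krt17 in skin appendages and in wounded or proliferating epidermis. Krt90 is a little characterised type II keratin, which was placed with the stratified keratins here by the choice of genes.

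Krt17 and Krt90 were far higher in Dicer cKO uteri, while the simple keratins Krt8, Krt18 and Krt19 were lower and Krt7 was higher. The other stratified keratins did not follow Krt17 and Krt90. Krt10 and Krt12 were lower in Dicer cKO uteri, and the basal keratins Krt5 and Krt15 overlapped between the groups. Of the 10 genes, 8 had Dicer cKO and control pools that did not overlap, where 37.6% of 15733 genes did the same. By limma adjusted p under 0.05, 3 of the 10 were among the genes called higher (2.78% of all genes) and 5 among those called lower (3.96% of all genes; 6.74% in either direction). These counts follow from how the genes were chosen and are not evidence about them.

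**Figure D1:**
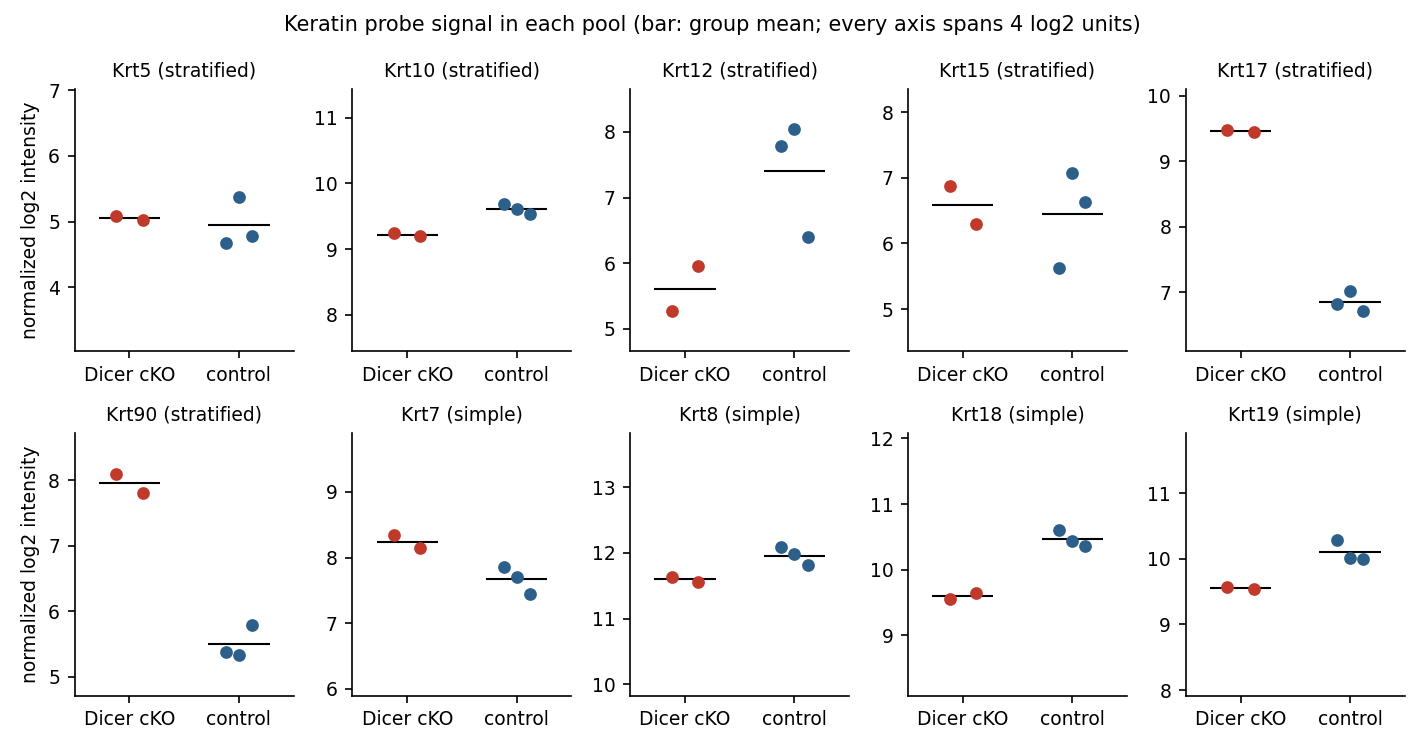
Normalized log2 intensity (vertical axes, each spanning 4 log2 units) of the brightest probe of each keratin gene in the Dicer cKO pools (red, left) and control pools (blue, right), with a bar at the group mean. Krt17 and Krt90 sit more than 2.0 log2 units above every control pool, Krt8, Krt18, Krt19, Krt10 and Krt12 sit below, and Krt5 and Krt15 overlap.

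Krt17, the type I keratin of hair follicles and wounded epidermis, had log2 signals of 9.48 and 9.44 in Dicer cKO pools 10 and 12, against 6.83, 7.02 and 6.72 in control pools 7, 9 and 11. The Dicer cKO pools lay within 0.03 of each other, and the lower of them was 2.42 above the highest control pool. The difference was 2.60 ± 0.12, a fold of 6.08. On the deposited linear scale the probe read 695.6 and 740.2 in the Dicer cKO pools and 158.7, 165.3 and 127.1 in the control pools. It was detected on all 5 arrays, so Krt17 signal was present in control uteri as well.

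Krt90 (type II) had log2 signals of 8.10 and 7.80 in Dicer cKO pools 10 and 12, against 5.38, 5.33 and 5.79 in control pools 7, 9 and 11. Both Dicer cKO pools were at least 2.02 above the highest control pool, control pool 11. The difference was 2.45 ± 0.17, a fold of 5.46, from deposited intensities of 283.2 and 256.4 in Dicer cKO pools and 76.8, 72.7 and 81.4 in control pools. Krt17 and Krt90 thus differed by similar amounts. The log2 ratio of Krt90 to Krt17, set to 0 at the control mean, was -0.02 and -0.28 in Dicer cKO pools 10 and 12, within the range of -0.33 to 0.42 of the control pools.

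Krt12, the type I keratin of corneal epithelium, was read by a pair of probes. The brighter probe had log2 signals of 5.27 and 5.95 in Dicer cKO pools 10 and 12, against 7.79, 8.04 and 6.40 in control pools 7, 9 and 11. The other probe had 4.89 and 5.64 in the Dicer cKO pools, against 7.71, 7.84 and 6.28 in the control pools. On both probes control pool 11 was much lower than the other control pools, and Dicer cKO pool 10 was the lowest pool. The groups did not overlap, but control pool 11 was only 0.44 above Dicer cKO pool 12 on the brighter probe. The differences were -1.80 ± 0.40 and -2.01 ± 0.40 in a fit of single probes, 3.48-fold and 4.03-fold lower.

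Krt10, the type I keratin of the layers above the basal layer, had log2 signals of 9.24 and 9.20 in Dicer cKO pools 10 and 12, against 9.68, 9.61 and 9.54 in control pools 7, 9 and 11. All pools of a group lay close together, with a within-group SD of 0.06. The difference was -0.40 ± 0.09, 1.32-fold lower in Dicer cKO uteri.

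The basal keratins showed no separation of the groups. Krt15 had log2 signals of 6.87 and 6.29 in Dicer cKO pools 10 and 12, inside the control range of 5.63, 7.08 and 6.63 in pools 7, 9 and 11, with a difference of 0.13 ± 0.35. Krt5 had 5.09 and 5.03 in Dicer cKO pools, again inside the control values of 4.67, 5.37 and 4.78, with a difference of 0.12 ± 0.20. In both genes control pool 9 was the highest control and control pool 7 the lowest. Krt5 was close to background: it was detected on both Dicer cKO arrays and on 1 control array, pool 9.

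**Figure D2:**
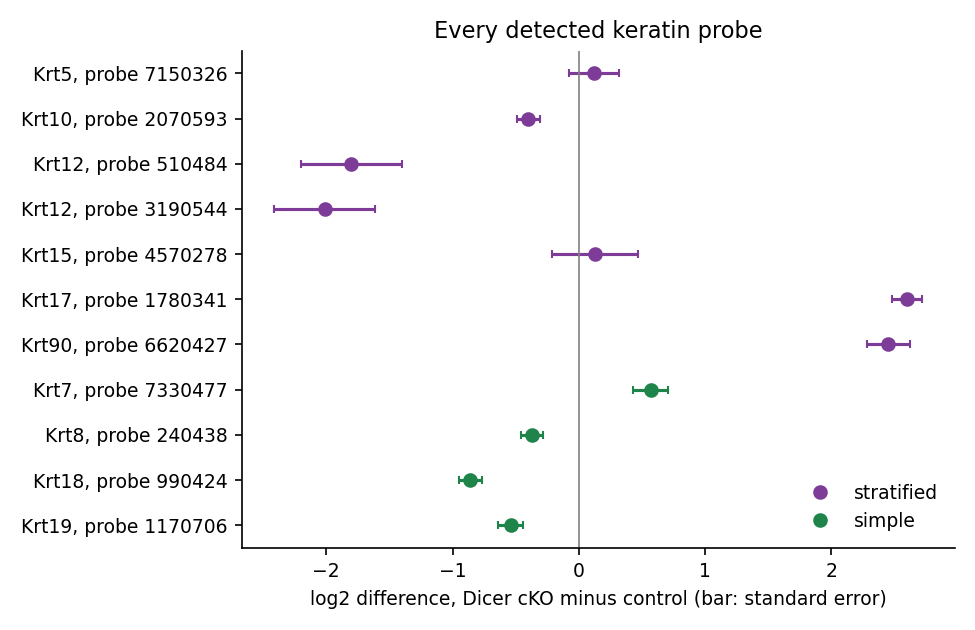
Log2 difference between Dicer cKO and control (horizontal axis) with its standard error for each of the 11 keratin probes detected on at least 2 arrays. Both Krt12 probes lie far below 0, Krt17 and Krt90 far above it, and Krt15 and the Krt12 probes have the widest errors.

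Among the simple keratins, Krt18 (type I) differed by the largest amount. Its log2 signals were 9.56 and 9.65 in Dicer cKO pools 10 and 12, against 10.60, 10.44 and 10.36 in control pools 7, 9 and 11. The gap between the groups was 0.71, and the difference was -0.86 ± 0.09, 1.82-fold lower in Dicer cKO uteri.

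Krt8, the type II partner of Krt18, had log2 signals of 11.64 and 11.56 in Dicer cKO pools 10 and 12, against 12.09, 11.98 and 11.81 in control pools 7, 9 and 11. The groups were separated by only 0.18, and the difference was -0.37 ± 0.09, 1.29-fold lower. Krt19, the other type I partner, had 9.57 and 9.54 in the Dicer cKO pools, against 10.29, 10.02 and 10.00 in the control pools, a difference of -0.54 ± 0.10 and 1.46-fold lower. For all these genes control pool 7 was the highest pool.

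Krt7, the type II keratin of ducts and simple epithelia, went the other way. Its log2 signals were 8.34 and 8.14 in Dicer cKO pools 10 and 12, against 7.85, 7.71 and 7.45 in control pools 7, 9 and 11. The groups did not overlap, with a gap of 0.29, and the difference was 0.57 ± 0.14, a fold of 1.48.

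Ratios within an array show how unequally these genes differed. Set to 0 at the control mean, the log2 ratio of Krt18 to Krt8 was -0.58 and -0.41 in Dicer cKO pools 10 and 12, against 0.00, -0.04 and 0.04 in control pools 7, 9 and 11. The log2 ratio of Krt7 to Krt8 was 0.99 and 0.87 in Dicer cKO pools, against 0.05, 0.02 and -0.07 in control pools. Both ratios were tighter among the control pools than Krt8 itself, with SDs of 0.04 and 0.06 against 0.14 (n = 3). In whole uteri, fewer cells of a type and less RNA per cell cannot be told apart.

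Averaged over genes, the simple keratins stood at -0.27 and -0.33 in Dicer cKO pools 10 and 12 relative to the control mean, against 0.16, -0.01 and -0.15 in control pools 7, 9 and 11. The 6 stratified keratins stood at 0.55 and 0.49 in the Dicer cKO pools, against -0.13, 0.28 and -0.15 in the control pools. The stratified minus simple difference was 0.82 on average in Dicer cKO pools relative to control (control SD 0.29, n = 3). It rests on Krt17 and Krt90: without these genes, a setting added after the values were seen, it was -0.21 and -0.16 in the Dicer cKO pools, inside the range of -0.32 to 0.43 of the control pools. The 6 genes grouped as stratified therefore held 2 that were higher, 2 that were lower and 2 whose groups overlapped.

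**Figure D3:**
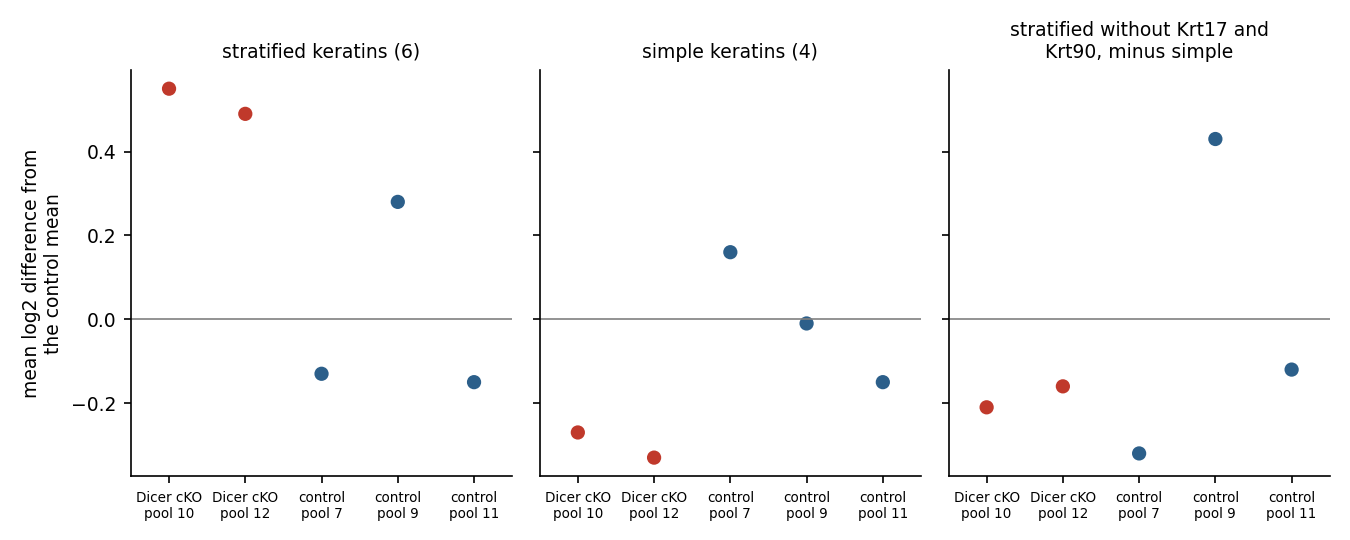
Mean log2 difference from the control mean (vertical axis) in each pool, for the 6 stratified keratins, the 4 simple keratins, and the stratified keratins without Krt17 and Krt90 minus the simple ones, with Dicer cKO pools in red and control pools in blue. In the right panel the Dicer cKO pools, at -0.21 and -0.16, lie within the control range.

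The spread between pools of the same group is given as a description too, since the genes were chosen with results of these data known. Each gene was ranked against all genes with no match on intensity, and Krt5 was close to background. Krt12 had a within-group SD of 0.77, larger than that of 99.9% of 15733 genes, Krt15 one of 0.65 (99.8%) and Krt5 one of 0.31 (95.4%). Krt10 had one of 0.06, larger than that of only 11.7% of genes. The other 6 keratins lay between the 38.8 and 88.1 percentiles, with Krt18 at the low end and Krt90 at the high end. The 12 probes were read on 26 to 69 beads per array (median 42), with a standard error of the bead mean between 2.42% and 6.80% of the signal.

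The keratins lie in a type I and a type II gene cluster, with Krt18 as the exception, a type I gene next to Krt8 in the type II cluster. Neighbouring genes did not share a direction or a size throughout. Krt10 and Krt12 are neighbours and were both lower, as were Krt8 and Krt18. Krt15 and Krt19 are neighbours as well, and only Krt19 of that pair had groups that did not overlap. Krt17 lies between Krt16 and Krt42, and Krt90 between Krt82 and Krt75. Krt16 and Krt82 were not detected on any array, Krt42 on 1 Dicer cKO array, and no probe was matched to Krt75.

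**Figure D4:**
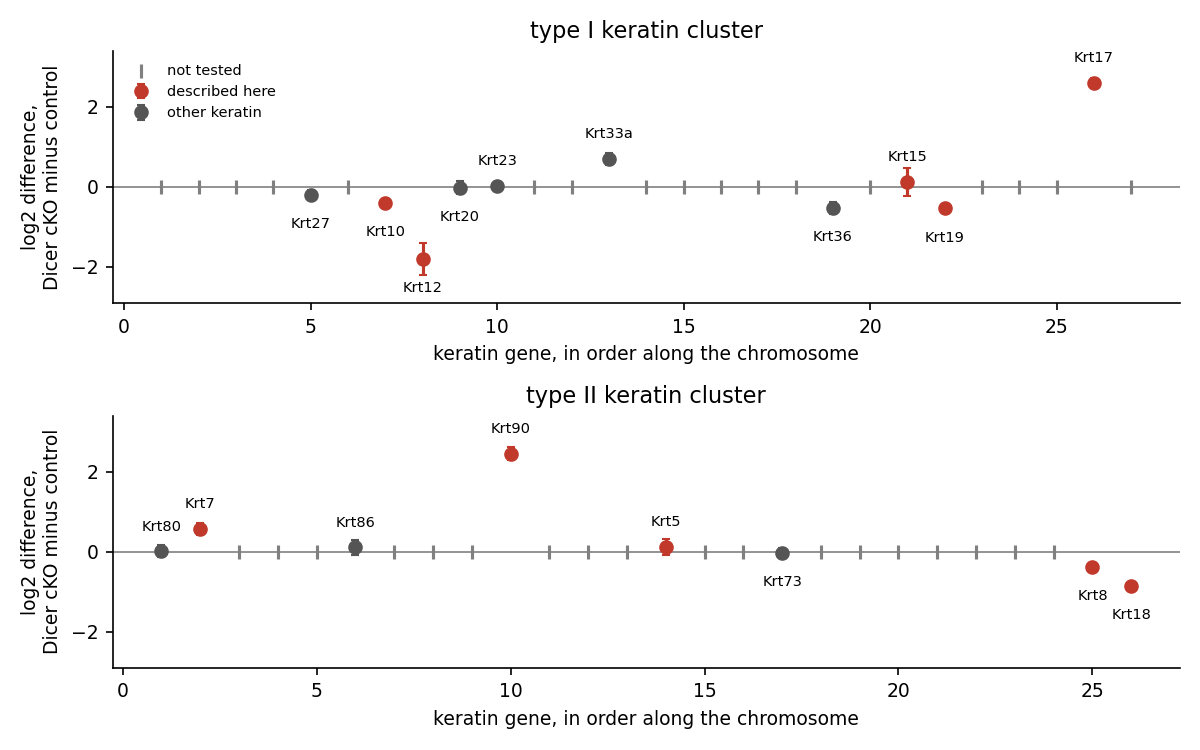
Log2 difference between Dicer cKO and control with its standard error (vertical axes) for keratin genes in their order along the type I cluster (top) and the type II cluster (bottom), red for the genes described and dark grey for other keratins, with a tick for each gene not tested. Krt17 and Krt90 lie above all others, while Krt8 and Krt18 end the type II cluster, both below 0.

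Promoter sequences are printed for Krt90 and Krt12, which had the largest higher and lower differences among the genes with an entry, and for the simple keratins Krt18, Krt8 and Krt7, so that members with like and unlike differences can be set side by side. They are from RefSeq on GRCm38.p6, where 7 of the 10 genes had an entry, and run 5′ to 3′ from 250 bases before the gene start to 30 after it. Capitals mark matches, on either strand, to TATAAA (the TATA box), GGGCGG (the GC box), TGANTCA (AP-1) or GCCNNNGGC (AP-2).
Krt90 (chr15:101562921-101563200, minus strand): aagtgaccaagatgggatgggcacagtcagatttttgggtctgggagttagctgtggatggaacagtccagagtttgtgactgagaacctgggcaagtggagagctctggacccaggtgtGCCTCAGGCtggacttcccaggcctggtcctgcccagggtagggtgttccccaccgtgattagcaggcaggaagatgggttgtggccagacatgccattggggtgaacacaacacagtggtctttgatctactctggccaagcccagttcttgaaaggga
Krt12 (chr11:99422230-99422509, minus strand): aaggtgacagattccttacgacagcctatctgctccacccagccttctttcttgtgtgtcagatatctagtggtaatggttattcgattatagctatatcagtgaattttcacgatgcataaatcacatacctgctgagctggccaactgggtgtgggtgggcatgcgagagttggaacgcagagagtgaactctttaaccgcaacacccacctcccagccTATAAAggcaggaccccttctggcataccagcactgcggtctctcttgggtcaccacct
Krt18 (chr15:102027966-102028245, plus strand): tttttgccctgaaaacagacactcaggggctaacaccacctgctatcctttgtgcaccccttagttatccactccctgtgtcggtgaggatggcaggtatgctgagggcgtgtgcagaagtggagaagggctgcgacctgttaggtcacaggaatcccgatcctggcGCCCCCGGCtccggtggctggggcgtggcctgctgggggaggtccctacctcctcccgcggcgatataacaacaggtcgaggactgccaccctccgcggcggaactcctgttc
Krt8 (chr15:102004313-102004592, minus strand): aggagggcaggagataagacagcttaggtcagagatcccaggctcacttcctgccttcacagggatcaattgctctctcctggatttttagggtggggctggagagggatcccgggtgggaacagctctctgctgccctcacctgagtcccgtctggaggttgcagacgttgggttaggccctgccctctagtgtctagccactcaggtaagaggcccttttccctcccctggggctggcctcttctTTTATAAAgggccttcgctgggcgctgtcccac
Krt7 (chr15:101412153-101412432, plus strand): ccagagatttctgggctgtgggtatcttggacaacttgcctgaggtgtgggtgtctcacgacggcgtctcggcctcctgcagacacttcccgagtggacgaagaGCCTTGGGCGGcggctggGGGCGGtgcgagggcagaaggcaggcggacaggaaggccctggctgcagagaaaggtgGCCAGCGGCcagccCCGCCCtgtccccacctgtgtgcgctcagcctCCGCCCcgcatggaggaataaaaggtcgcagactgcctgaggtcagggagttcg
Positions count from the gene start with no base 0. Krt12 held TATAAA at -29 to -24, as Krt10 did at -26 to -21, and Krt8 held it across the annotated start at -1 to 5, overlapped by a match on the other strand at -3 to 3. Krt18 and Krt90 each held 1 AP-2 match, at -83 to -75 and -130 to -122. Krt7 held 2 AP-2 and 4 GC box matches, of which the AP-2 match at -146 to -138 overlaps the GC box at -141 to -136. Krt5 held none of the 4 motifs, and none of the 7 held TGANTCA. Over 32851 RefSeq promoters the same window held TATAAA in 13.1%, GGGCGG in 34.7%, TGANTCA in 7.46% and GCCNNNGGC in 15.4%. A match is a description of the letters in this window.

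Genes with the profile most like a keratin's were sought for Krt12, Krt17 and Krt90, the members that differed by at least 1 log2 unit. Likeness was the root mean square distance over the 5 pools after each gene was centred on its control mean, so it mostly reads the size of the group difference. Igf2bp3, an RNA-binding protein gene of fetal tissues, was at a distance of 0.09 log2 units from Krt90 and 0.21 from Krt17, and the cell cycle inhibitor gene Cdkn1a was at 0.28 from Krt17. Both genes were detected on at least 1 control array. The rule also named the cornified envelope gene Lce3b for both keratins and the gap junction gene Gjb6 for Krt90. No control array detected either of them, so their control level is at background, no distance or rank is given, and only a bound is known: at least 3.70-fold higher in Dicer cKO pools for Lce3b and 3.47-fold for Gjb6.

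Closest to Krt12 were BC018465 (0.28), the cytochrome P450 gene Cyp2e1 (0.35) and Ihh, the hedgehog ligand of uterine epithelium (0.35). BC018465 had log2 signals of 5.43 and 5.59 in Dicer cKO pools 10 and 12, against 7.53, 7.75 and 5.75 in control pools 7, 9 and 11. Cyp2e1 had 4.74 and 6.12 in the Dicer cKO pools, against 8.11, 8.28 and 6.15 in the control pools. Neither was called (limma adjusted p = 0.0976 for BC018465 and 0.0646 for Cyp2e1). Like Krt12, both were much lower in control pool 11 than in the other control pools. Ihh had 4.97 and 5.45 in the Dicer cKO pools, against 7.56, 7.28 and 6.67 in control pools 7, 9 and 11. Ovgp1, the oviductal glycoprotein gene, had 5.17 and 5.07 in the Dicer cKO pools, against 7.88, 8.50 and 6.71 in the control pools. Ihh and Ovgp1 were thus also lowest in pool 11 among controls. The other tested oviduct markers were mixed. Cfap126 (5.51) and Pax8 (5.72) were lowest in control pool 11 among controls. Foxj1 (5.71) and Rsph1 (7.23) were highest there, and Tppp3 was lowest in control pool 9 (10.43). Whether oviduct tissue differed between pools and took part in the Krt12 difference was not tested.

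Most other keratins were not measurable in these uteri. Of 20 other epithelial keratins with a probe, 12 were not detected on any array, among them Krt4, Krt6a, Krt6b, Krt13, Krt16 and Krt76, and 4 were detected on enough arrays to be tested. None of these 4 was called by limma, beside 6.74% of all genes, and 0 had an unadjusted p under 0.05. Their differences were 0.03 ± 0.10 for Krt23, 0.01 ± 0.15 for Krt80, -0.02 ± 0.17 for Krt20 and -0.03 ± 0.13 for Krt73. Krt14, the usual type I partner of Krt5, was detected on 1 control array and on neither Dicer cKO array. The probe sequences are not used here, so whether the Krt17 probe tells Krt17 from the closely related Krt14, Krt16 and Krt42 was not tested; the arrays on which those genes were detected number 1, 0 and 1.

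Of 21 hair and root sheath keratins with a probe, 16 were not detected on any array and 4 were tested. Of these 1 was called higher and 0 lower, where 2.78% of all genes were called higher and 3.96% lower. Their median was -0.05, beside 0.01 over all genes. Krt33a, a hair keratin, rose by 0.69 ± 0.15 (limma adjusted p = 0.0259), with log2 signals of 5.93 and 5.71 in Dicer cKO pools and 4.92, 5.25 and 5.20 in control pools. The call was lost without control pool 7 (adjusted p = 0.0855) and without Dicer cKO pool 10 (0.246).

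Genes that anchor keratin filaments at cell junctions were called in both directions. Of 24 on the array 17 were tested, of which 1 rose, 4 fell and 12 did not pass, with a median of -0.12 beside 0.01 over all genes, of which 2.78% were called higher and 3.96% lower. Without Dicer cKO pool 10, without pool 12 and with no detection filter, the list held 1 gene called higher and 1 called lower. Itgb4, an integrin gene of hemidesmosomes, which tie keratins to the basement membrane, fell by 1.26 ± 0.14 (limma adjusted p = 0.000761). Its log2 signals were 8.42 and 8.75 in Dicer cKO pools and 10.03, 9.88 and 9.62 in control pools. A second Itgb4 probe differed by -1.42 ± 0.18. Itga6, the other integrin gene of this list, differed by 0.04 ± 0.16, and a dimmer Itga6 probe by -0.54 ± 0.15, neither called. Eppk1, encoding epiplakin, a plakin that binds keratin filaments, rose by 0.92 ± 0.11 (limma adjusted p = 0.00146), with 8.14 and 8.03 in Dicer cKO pools and 7.09, 7.24 and 7.15 in control pools.

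The other genes of this list that fell had weaker calls. Ppl, encoding the desmosomal plakin periplakin, differed by -0.79 ± 0.19 (limma adjusted p = 0.0349), and its dimmer probes differed by -0.78 and -0.03, neither called. Without Dicer cKO pool 10 or 12 its adjusted p was 0.281 and 0.0712. The hemidesmosomal collagen gene Col17a1 differed by -0.51 ± 0.13 (limma adjusted p = 0.0458) and the envoplakin gene Evpl by -0.46 ± 0.11 (limma adjusted p = 0.0385). Leaving out any 1 pool lost the calls of both, with limma adjusted p from 0.0663 to 0.163 for Col17a1 and from 0.0779 to 0.188 for Evpl, and the list then held 2 or 3 called genes. Dsp and Plec, the plakins desmoplakin and plectin, differed by -0.22 ± 0.11 and -0.23 ± 0.07 and did not pass. On this list 7 genes, each with 1 or 2 probes, were not detected on any array. They were the desmosomal cadherin genes Dsc1, Dsc2, Dsc3, Dsg1a and Dsg3, the plakoglobin gene Jup, and Perp.

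Of 18 regulators of keratin genes tested, 2 rose, 3 fell and 13 did not pass. Their median was -0.25 beside 0.01 over all genes, of which 2.78% were called higher and 3.96% lower. Klf5, a factor of proliferating epithelium, fell by 0.77 ± 0.10 (limma adjusted p = 0.00215), with log2 signals of 9.81 and 9.79 in Dicer cKO pools and 10.74, 10.57 and 10.39 in control pools. Grhl2, a regulator of epithelial junctions, fell by 0.60 ± 0.13 (limma adjusted p = 0.0234). The Grhl2 call did not hold without control pool 7 or 9 or without either Dicer cKO pool (adjusted p from 0.0667 to 0.118).

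The list holds a pair of AP-2 genes. Tfap2a, encoding AP-2 alpha, was not detected on any control array and was at least 1.5-fold higher in Dicer cKO pools (limma adjusted p = 0.000914). It passed the detection filter only through the Dicer cKO pools; with no filter its limma adjusted p was 0.000258, and it was not tested with detection on all 5 arrays or without either Dicer cKO pool. Tfap2c, encoding AP-2 gamma, rose by 0.48 ± 0.12 (limma adjusted p = 0.0499), a call that was lost in 11 of 13 other settings, leaving out any 1 pool included (adjusted p from 0.0523 to 0.355). Trp63, the factor that sets the basal stratified programme, had log2 signals of 6.19 and 6.46 in Dicer cKO pools and 6.89, 6.67 and 6.58 in control pools and did not pass (-0.39 ± 0.15, limma adjusted p = 0.170).

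Of 9 other intermediate filament genes tested, 0 rose, 1 fell and 8 did not pass. Their median was 0.01, the same as over all genes, of which 2.78% were called higher and 3.96% lower. Vim, the vimentin gene of stromal cells, fell by 0.82 ± 0.12 (limma adjusted p = 0.00383), with log2 signals of 10.85 and 11.13 in Dicer cKO pools and 12.04, 11.75 and 11.64 in control pools. Without Dicer cKO pool 10 its adjusted p was 0.0655. Des, the desmin gene of muscle, differed by 0.09 ± 0.07 and Lmnb1, the lamin B1 gene, by 0.56 ± 0.18, and neither passed.

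**Figure D5:**
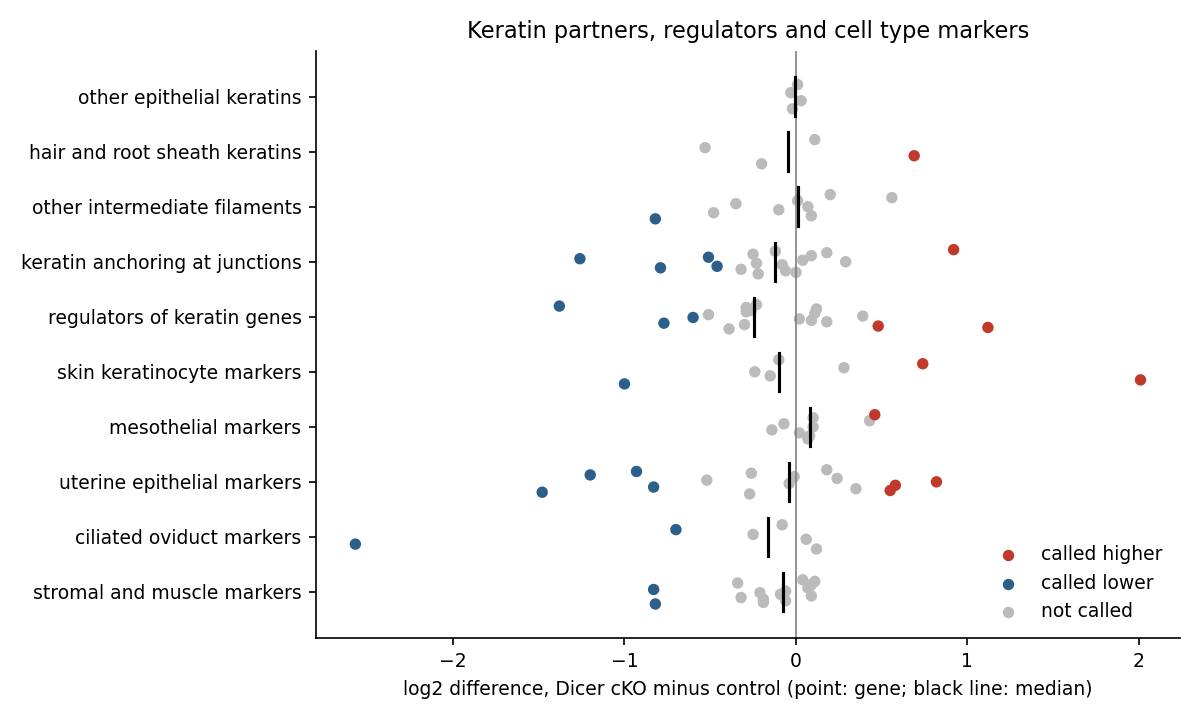
Log2 difference between Dicer cKO and control (horizontal axis) for each tested gene of 10 lists, red where limma called it higher, blue where lower and grey otherwise, with a black line at the median of the list. The 4 other epithelial keratins lie within 0.03 of 0, while junction genes, regulators and uterine epithelial markers spread to both sides.

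Markers of cell types that could bring keratin RNA were read beside these values. Of 20 skin keratinocyte markers, 10 were not detected on any array, among them Flg, Flg2, Krtdap and Casp14. Of 7 tested 2 rose and 1 fell, where 2.78% of all genes were called higher and 3.96% lower. Both that rose, Ivl and Sfn, were not detected in control pools and passed the detection filter only through the Dicer cKO pools. With detection required on all 5 arrays neither was tested, and the list held 0 genes called higher and 1 lower. Nor were Ivl and Sfn tested without Dicer cKO pool 10 or without pool 12. Ivl, an envelope protein gene, was at least 2.65-fold higher in Dicer cKO pools (limma adjusted p = 0.00011; 0.000181 with no detection filter), and Sfn, a 14-3-3 protein gene of stratified epithelia, was at least 1.40-fold higher (limma adjusted p = 0.0192; 0.0609 without control pool 9 and 0.0506 without control pool 11). Lor, encoding loricrin, fell by 1.0 ± 0.12 (limma adjusted p = 0.00107). The mean log2 signal of the 7 was 5.95 and 5.78 in Dicer cKO pools 10 and 12, against 5.70, 5.52 and 5.72 in control pools 7, 9 and 11.

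The mesothelium that covers the uterus also makes Krt7, Krt8, Krt18 and Krt19. Of its 9 other markers 1 rose, 0 fell and 8 did not pass, where 2.78% of all genes were called higher and 3.96% lower. Their mean log2 signal was 7.26 and 7.59 in Dicer cKO pools, around the 7.33, 7.36 and 7.24 of control pools. The marker that rose was the claudin gene Cldn15 (0.46 ± 0.10, limma adjusted p = 0.0192), a call kept only with control pool 11 left out among the 5 settings that leave out a pool (adjusted p up to 0.120). A dimmer Cldn15 probe differed by 0.15 ± 0.13 and was not called. Msln and Upk3b, defining markers of the mesothelium, differed by 0.07 ± 0.16 and 0.08 ± 0.12.

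Of 15 tested uterine epithelial markers other than keratins, 3 rose, 4 fell and 8 did not pass, and their mean log2 signal was 8.09 and 8.07 in Dicer cKO pools, below the 8.34, 8.25 and 8.21 of control pools. Over all genes 2.78% were called higher and 3.96% lower. Without Dicer cKO pool 10 the count was 1 higher and 3 lower, and with every probe fitted by itself 4 probes were higher and 8 lower. The claudin gene Cldn3 fell by 1.48 ± 0.17 (limma adjusted p = 0.00109), Rab25, a trafficking GTPase gene, fell by 1.20 ± 0.09 (limma adjusted p = 8.23e-05) and the mucin gene Muc1 fell by 0.93 ± 0.12 (limma adjusted p = 0.00161). Foxa2, a gland transcription factor gene, had no detected signal in the Dicer cKO pools and fell at least 1.12-fold (limma adjusted p = 0.00606). Foxa2 passed the detection filter only through the control pools. With no filter its limma adjusted p was 0.00247, and it was not tested where detection on every array was required. The Foxa2 call was lost without Dicer cKO pool 10 (difference -0.77, from undetected Dicer cKO signal). Spint1, a protease inhibitor gene, rose by 0.82 ± 0.10 (limma adjusted p = 0.00147). The pan-epithelial cadherin gene Cdh1 differed by -0.27 ± 0.11 and did not pass.

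Of 16 stromal and muscle markers 0 rose and 2 fell (1 without Dicer cKO pool 10, where Vim was lost), Vim and Amhr2 (-0.83 ± 0.12, limma adjusted p = 0.00274), with mean log2 signals of 10.60 and 10.78 in Dicer cKO pools and 10.88, 10.82 and 10.87 in control pools. Of 6 tested ciliated and oviduct markers 0 rose and 2 fell, Ovgp1 (-2.57 ± 0.39, limma adjusted p = 0.00429; 0.104 under a robust spread and 0.0600 when Dicer cKO pool 10 was left out) and Tppp3 (-0.70 ± 0.11, limma adjusted p = 0.00436; 0.0643 without Dicer cKO pool 10). Their mean was 6.51 and 6.56 in Dicer cKO pools, against 7.17, 7.25 and 6.91 in control pools. The shares over all genes, beside the counts of both lists, were 2.78% called higher and 3.96% lower. The cilia factor gene Foxj1 differed by 0.12 ± 0.14. The part of any change in cell make-up in the keratin differences was not tested.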

How the data were processed

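Total RNA of 5 pools of uteri was hybridised to 1 Illumina array each. The labels name a human array, while the gene names in the files match mouse genes. The authors deposited, for each probe, its mean intensity over beads on a linear scale, without normalization between arrays as the values show (lowest intensity 27.9 to 29.5), and BeadStudio is named in the submitters' processing notes. The deposited detection score, a fraction from 0 to 1, rises with signal, and 1 minus it served as detection p. Per the file headers, bead counts (median 44 per probe) and the bead SD were deposited too. A further deposited table of quantile-normalized intensity (median 71.1 in every column) has row names that do not match the probes, served for a count of rows only, and its background treatment is unknown. The number of arrays limits the precision.

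Background correction and normalization used neqc (limma 3.58.1, R 4.3.3; normexp with an offset of 16, quantile, log2). A probe was kept where 2 or more of the 5 arrays gave it a detection p below 0.05, and the brightest probe stood for a gene, leaving 15733 genes. Array names were brought to symbols with RefSeq names of GRCm38.p6: 22864 probes had a current symbol, 11917 a synonym of 1 gene and 10500 kept their name. limma (lmFit, eBayes with trend, 2-sided, no covariate) tested Dicer cKO against control over all genes with Benjamini-Hochberg adjustment, called under 0.05, and was tested on simulated data. Where no array of a group detected a gene, its fold is a lower bound, set against the lowest detected signal. p-values measure the spread between pools. No pair of arrays differed by as little as bead error alone. Before normalization, squared differences were in the median 1.38 to 2.96 times their bead variance within groups and 1.23 to 2.72 times between groups. Differences in array scale enter these values. No batch was given in the labels or files.

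The members and gene lists were chosen with earlier results of these data known. Named from each list were called genes (the 6 with the largest difference), or the 2 with the largest moderated t where none was called. The 3 nearest profiles of members that differed by at least 1 log2 unit were named too. Undetected genes, genes that did not pass and the oviduct markers beside Krt12 were named after their values were seen. Alternatives were other offsets, background, normalization, filters, spread models, single probes and each pool left out. Some genes that the rule names are not reported here, though list counts include them.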

Additional observations from a re-analysis of the deposited data

How the results depend on the processing

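Leaving out 1 pool moved the count of called genes between 275 (without Dicer cKO pool 10) and 956. Other keratins stayed at 0 calls in all 13 other settings. With a pool left out, hair keratins had 0 to 1 called genes, junction genes 2 to 3, regulators 2 to 4 and other filaments 0 to 1. Hair keratins had 0 called genes with no detection filter and with detection on all 5 arrays, and 2 without the intensity trend or with a robust spread, when Krt36 passed too. Junction genes had 3 without normalization between arrays and 2 with no detection filter, and regulators 3 with detection on all 5 arrays, where Tfap2a was not tested and Tfap2c not called. The cause was not tested. The stratified minus simple difference lay between 0.68 and 0.97 with a pool left out. Chosen after the values were seen, it was -0.19 without Krt17 and Krt90 and 1.28 without Krt12.

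Among cell type markers, skin genes had 1 called gene with detection on all 5 arrays, where Ivl and Sfn were not tested, against 3. Ciliated and oviduct genes had 1 with a robust spread, against 2. No keratin whose groups did not overlap turned its direction in any of the 13 settings. Krt17 ranged from 2.30 to 2.69 and Krt90 from 1.82 to 2.60, lowest with an offset of 50, which compresses dim signals, and Krt12 from -2.31 to -1.32. The differences of Krt15 and Krt5 changed sign when single pools were left out, with lows of -0.27 and -0.02. No paired analysis was possible because the pools of the groups share no number.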
